A study of Mus musculus with 6 samples.

Results

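Neurotrophin transcripts and those of their receptors were followed in the hippocampus of mice without inhibitor-1. The genes were Bdnf and Ntf3, which encode the ligands BDNF and neurotrophin-3, Ntrk2 and Ntrk3, which encode the receptor kinases TrkB and TrkC, Ngfr, which encodes the p75 receptor, and Sort1, which encodes sortilin. The members were all probe sets that the platform annotation assigned to exactly 1 of these 6 symbols, which gave 24 of the 45101 probe sets on the array and 5 of its 18194 singly named genes. Ntrk2 and Ntrk3 had 8 each, Ngfr and Sort1 had 3 each, and Bdnf had 2. No probe set carried the symbol Ntf3 in the annotation used here, so Ntf3 was not analysed here.

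Total RNA of hippocampus was hybridised to 6 one-colour Affymetrix mouse arrays, 3 from inhibitor-1 knockout mice and 3 from wild-type mice. The labels name genotype, tissue and a replicate number; age, strain and the targeting construct are not given in the sources used here. Nothing in the labels says that each array came from a separate animal, so p-values measure only how far these samples spread, which may be technical in origin. In a tissue RNA sample, fewer cells of a type and less RNA per cell cannot be told apart.

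The targeted gene was low where the labels say it should be. The only probe set of Ppp1r1a, which encodes inhibitor-1, had intensities of 272.5, 248.5 and 347.2 on the knockout arrays, against 9061, 8370 and 10345 on the wild-type arrays. Markers of the hippocampal subfields were measured above the filter on dim probe sets on these arrays, with 10 of 10 dentate granule, 8 of 8 CA1 and 9 of 9 CA3 and CA2 genes on the array tested. Every intensity in the table lay above 0. The median intensity was lowest on replicate 1 in both groups, at 542 against 664 and 666 for the other knockout arrays, and at 574 against 621 and 642 for the other wild-type arrays.

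Neurotrophins are made as precursors, cut by proprotein convertases and released from neurons, in part when the neurons fire. Mature BDNF binds TrkB and mature neurotrophin-3 binds TrkC, and both receptors signal through Ras and MAP kinases, through PI3 kinase and Akt, and through phospholipase C gamma. The uncut precursors bind p75 together with sortilin, which also sorts pro-BDNF inside the cell. In the hippocampus BDNF and TrkB are known for their part in long-term potentiation. Ntrk2 and Ntrk3 each give full-length transcripts that encode the kinase and truncated ones that lack it and end in other 3' exons, and truncated TrkB is abundant in astrocytes. Phosphorylated inhibitor-1 restrains protein phosphatase 1, and that phosphatase removes the activating phosphate of CREB, a transcription factor that acts on Bdnf. The comparison of knockout with wild type therefore asks whether these transcripts differ when that restraint is missing.

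Bdnf transcription starts from several first exons that are each spliced to a common coding exon. The RefSeq table of build GRCm38.p6 held 7 start windows for the gene, which lies on chromosome 2 from 109674700 to 109727043. Each window runs from 250 bases before a start to 50 after it. The core of the cAMP response element, TGACG on either strand, was found in 1 of the 7 windows, 14.3%, and in 20.8% of all 32851 windows in the table. The full element TGACGTCA was found in 0 of the 7 and in 1.79% of all windows. The stretch before the start that holds the core is shown because the annotation of the Bdnf probe sets names the gene and not the first exon, so the array values cannot be tied to this or any other start. It lies on the plus strand at chr2:109692356-109692435 and ends just before the start, and the capitals mark the core, here read as its reverse complement, from 35 to 31 bases before the start.
Bdnf: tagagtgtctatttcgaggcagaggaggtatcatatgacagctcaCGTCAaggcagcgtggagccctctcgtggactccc
A match to these letters describes the window and is not evidence of a bound site. Single windows of Ntrk2 (chromosome 13) and Ngfr (chromosome 11), and both windows of Ntf3 (chromosome 6), held neither form.

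Across the genes, none of the tested probe sets passed the threshold. Values were compared as log2(intensity + 16) with limma, and a Benjamini-Hochberg adjusted p under 0.05 over all 26999 tested probe sets counted as a call. A probe set was tested where its mean over all 6 arrays lay above a log2 level of 8.44, under which 40% of probe sets lie, and 19 of the 24 did. By limma 0 of these 19 were called, where 0.0111% of all tested probe sets were called, and the lowest adjusted p was 0.988. At an unadjusted p under 0.05 there was 1, a probe set of Ntrk2, where 4.38% of all tested probe sets lay under that value. The knockout and wild-type arrays did not overlap for 2 of the 19, where that held for 9.89% of all tested probe sets. Of the 19 log2 changes, knockout minus wild type, 9 were above 0 (50.9% of all tested probe sets) and 10 below, with a median of -0.002 beside a median of 0.004 over all tested probe sets.

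**Figure D1:**
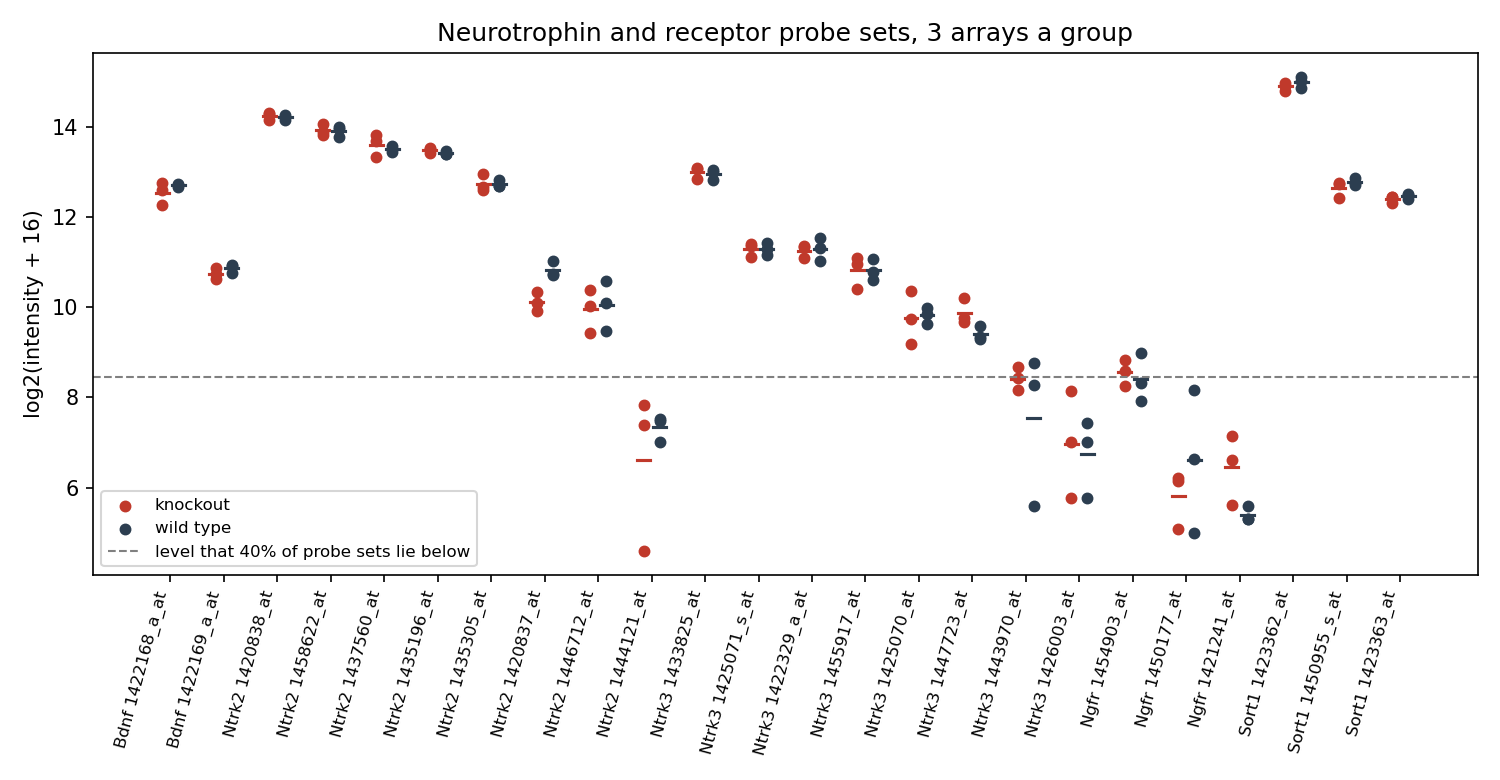
Log2(intensity + 16) of each of the 24 probe sets on the knockout arrays (red, left) and the wild-type arrays (dark, right), 3 a group, with short bars at the group means. The dashed line at 8.44 is the level under which 40% of probe sets lie. The 5 probe sets whose mean over the 6 arrays lies below it were not tested; levels of different probe sets cannot be compared with each other.

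No difference of Bdnf beyond the spread between arrays was detected. Probe set 1422168_a_at had intensities of 6177, 6886 and 4942 on the knockout arrays, against 6504, 6776 and 6684 on the wild-type arrays. Knockout replicate 2 was the highest of the 6 and knockout replicate 3 the lowest, so the groups overlapped. Its log2 change was -0.16 (SE 0.12, 95% interval -0.42 to 0.10, limma adjusted p = 0.988). It was -0.03 without knockout replicate 3 and -0.27 without knockout replicate 2, so single arrays set much of its size. Knockout was the more variable group for this probe set, at 6002 ± 984 (SD, n = 3) in knockout and 6655 ± 138 (SD, n = 3) in wild type.

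The other Bdnf probe set, 1422169_a_at, was designed on the same sequence. It had intensities of 1689, 1558 and 1866 on the knockout arrays, against 1712, 1954 and 1912 on the wild-type arrays. Knockout replicates 1 and 2 were the lowest of the 6, and knockout replicate 3 lay among the wild-type values. The log2 change was -0.13 (SE 0.16, 95% interval -0.47 to 0.22, limma adjusted p = 0.989), and it was -0.06 without knockout replicate 2 and -0.19 without knockout replicate 3. The probe sets did not single out the same array, since knockout replicate 3 was lowest for 1422168_a_at and the highest knockout array for 1422169_a_at.

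Whether the Bdnf probe sets changed unequally was asked of their difference within each array. The log2 value of 1422168_a_at minus that of 1422169_a_at averaged 1.80 ± 0.37 (SD, n = 3) in knockout and 1.83 ± 0.07 (SD, n = 3) in wild type. The change of that difference was -0.04 (exact permutation test over the 6 arrays, two-sided, p = 0.9, adjusted p = 0.932 over 29 pairs of Bdnf and Ntrk2 probe sets). With 3 arrays against 3 the smallest p this test can give is 0.1. Averaged over its probe sets, Bdnf had a log2 change of -0.14 (95% interval -0.36 to 0.07, limma adjusted p = 0.922 over 12493 genes).

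Ntrk2, the TrkB gene on chromosome 13 from 58806472 to 59133970, had 1 probe set that stood apart from the others. Probe set 1420837_at had intensities of 1073, 1285 and 943 on the knockout arrays, against 1683, 1676 and 2066 on the wild-type arrays. All 3 knockout arrays lay below all 3 wild-type arrays. The log2 change was -0.71 (SE 0.19, 95% interval -1.135 to -0.29), which did not pass over all tested probe sets (limma unadjusted p = 0.00334, adjusted p = 0.988). Without replicate 1 of both groups the log2 change was -0.75 (limma adjusted p = 0.288). Over all 6 arrays, an unadjusted p as low was found for 62 of the 26999 tested probe sets, 0.23%. This probe set was singled out for having the lowest p of the 19 tested members.

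The probe set designed on the same sequence gave no such difference. Probe set 1420838_at had intensities of 20402.5, 19933 and 18181 on the knockout arrays, against 18318.5, 18942 and 19666 on the wild-type arrays. The highest and the lowest of the 6 were both knockout arrays. Its log2 change was 0.04 (SE 0.07, 95% interval -0.12 to 0.20, limma adjusted p = 0.996).

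The other bright Ntrk2 probe sets resembled 1420838_at. Probe set 1458622_at averaged 15550 ± 1342 in knockout and 15390 ± 1138 in wild type (SD, n = 3 each), a log2 change of 0.01. Probe set 1437560_at averaged 12590 ± 2117 in knockout and 11650 ± 551 in wild type (SD, n = 3 each), a log2 change of 0.10 with its highest and its lowest array both in knockout. Probe set 1435196_at had 11620, 11840 and 10942 on the knockout arrays, against 10752, 10712 and 11247.5 on the wild-type arrays, a log2 change of 0.07. The arrays of the groups overlapped for each of these. Probe set 1435305_at had 7909, 6191 and 6447 on the knockout arrays, against 6588, 7249 and 6634 on the wild-type arrays, a log2 change of -0.002. For these 4 and 1420838_at the 95% intervals ran from -0.24 at the lowest to 0.35 at the highest.

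Of the 2 other Ntrk2 probe sets, 1446712_at spread widely within both groups. It had 674, 1320 and 1035 on the knockout arrays, against 698, 1072 and 1509 on the wild-type arrays. Replicate 1 was the lowest array of each group, and the log2 change of -0.10 had a 95% interval of -0.80 to 0.61. Probe set 1444121_at was dim and not tested, at 8.2, 151.9 and 211.7 in knockout and 113.9, 162.3 and 167.6 in wild type, where knockout replicate 1 was the lowest of the 6. Fit without the filter, its log2 change was -0.73 with a 95% interval of -2.61 to 1.15 (limma adjusted p = 0.986). Without knockout replicate 1 the difference of its group means was 0.27, so that array alone set the sign.

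**Figure D2:**
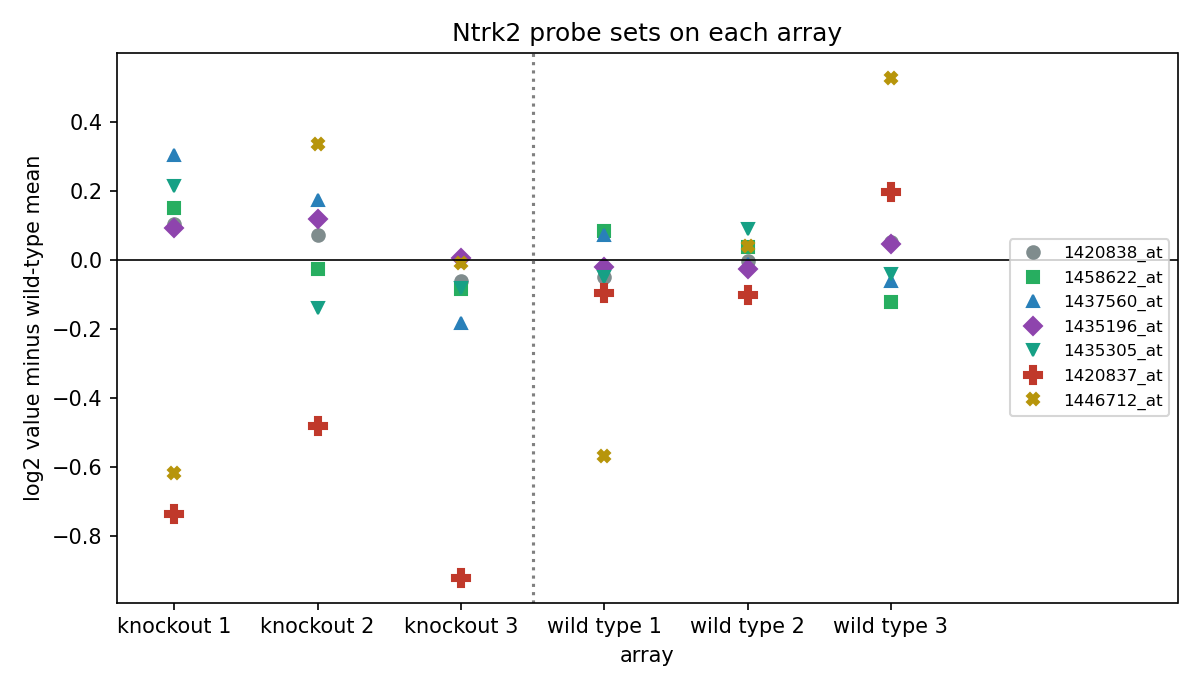
Log2 value of each tested Ntrk2 probe set on each array minus that probe set's mean over the wild-type arrays; each symbol is 1 probe set. Probe set 1420837_at (red plus signs) lies below its wild-type mean on all 3 knockout arrays, while 1446712_at (ochre crosses) is low on replicate 1 of both groups and the 5 others lie closer to 0 than 1420837_at on each knockout array, 1435196_at just above 0 on all 3 and the rest on both sides.

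The difference between Ntrk2 probe sets was then measured within each array. The log2 value of 1420838_at minus that of 1420837_at was 4.23, 3.94 and 4.25 on the knockout arrays, against 3.43, 3.49 and 3.24 on the wild-type arrays. The groups did not overlap, and the mean difference was 0.75 larger in knockout (exact permutation test, two-sided, p = 0.1, the smallest this design can give; adjusted p = 0.58 over 29 pairs). Among the 21 pairs of tested Ntrk2 probe sets, 5 of the 6 that include 1420837_at had groups that did not overlap, with changes of the difference from 0.62 to 0.81 in size over the 6. None of the 15 pairs without it did, and their changes were at most 0.195 in size. The 6 pairs share 1420837_at, whose own groups did not overlap, and are not separate observations. The dim 1444121_at is not among the 21 pairs. The difference between each of the 6 other tested probe sets and 1444121_at was 0.637 to 0.832 larger in knockout, and that between 1420837_at and 1444121_at was 0.02 larger, and the groups overlapped in all 7.

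Unequal change of this size was also found for other genes on the array. Groups did not overlap in the difference for 9.33% of all 17942 pairs of tested probe sets of a gene, and for 9.19% of the 4459 pairs designed on the same sequence. A difference of change at least as large as that of 1420838_at and 1420837_at was found in 3.28% of all such pairs and in 2.22% of those on the same sequence, 99 in number. That pair was picked because 1420837_at had the lowest unadjusted p of the 19 tested member probe sets. The pairs beside it were not picked by their values, so these shares do not test it. The range of log2 change among the tested probe sets of Ntrk2 was 0.81, and 13.3% of the 437 genes with 5 or more tested probe sets had a range as wide, the median being 0.42. Averaged over its tested probe sets, Ntrk2 had a log2 change of -0.08 (95% interval -0.28 to 0.11, limma adjusted p = 0.934).

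The sources used here give the sequence each probe set was designed on but not where on the gene it lies, so which Ntrk2 transcripts, full-length or truncated, 1420837_at and the others detect was not analysed here. Other measures of the same arrays stand beside this value, and some of them differed between the groups. The ratio of 3' to 5' signal of the beta-actin control was 1.18 to 1.21 in knockout and 1.24 to 1.30 in wild type, without overlap. For the Gapdh control it was 0.821 to 0.829 in knockout and 0.809 to 0.880 in wild type, with overlap. The summed intensity of 12 astrocyte markers, in which bright genes weigh most, was 341546 to 347074 in knockout and 321296 to 336267 in wild type, without overlap. Of the 12, 9 had a log2 change above 0 (median 0.06), and 7 did without wild type replicate 3. Taken singly, 2 of the 12 did not overlap, beside 10.5% of all tested genes. They went opposite ways, Gfap lower (-0.14) and Slc1a3 higher (0.14) in knockout. The sum over 10 oligodendrocyte markers was 352175 to 371598 in knockout and 375646 to 409259 in wild type, also without overlap, with 6 of 10 changes below 0 (median -0.07). Without wild type replicate 1 the oligodendrocyte median was -0.02, with 5 of 10 below 0. By the mean log2 level, in which each gene weighs the same, the groups overlapped for both lists. Centred over the 6 arrays, the astrocyte level was 0.049, 0.004 and 0.023 in knockout. In wild type it was 0.038, -0.079 and -0.035. The oligodendrocyte level was -0.056, -0.09 and 0.072 in knockout and 0.13, -0.018 and -0.038 in wild type.

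The sums of the other marker lists overlapped between the groups. In some of these lists most changes lay to one side of 0, and in others they were more even. Among 10 markers of neurons in general, 9 changes were below 0 (median -0.07), with sums of 534558 to 591805 in knockout and 575768 to 604856 in wild type. Camk2a, which encodes a kinase subunit of excitatory neurons, had the only unadjusted p under 0.05 of that list (log2 change -0.17, limma unadjusted p = 0.0267, adjusted p = 0.988). Among 10 dentate granule neuron markers, 9 changes were above 0 (median 0.12), with sums of 37946 to 41938 in knockout and 37073 to 40235 in wild type. Among 10 interneuron markers, 7 were below 0 (median -0.11), with sums of 154686 to 170053 in knockout and 168341 to 170452 in wild type. Changes above 0 numbered 4 of 9 for CA3 and CA2 markers (median -0.007) and 6 of 8 for CA1 markers (median 0.02). They numbered 6 of 10 for microglia (median 0.09) and 9 of 11 for endothelial and mural cells (median 0.095).

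Markers of tissue at the edge of the hippocampus had larger changes, which single arrays carried in part. Among markers of choroid plexus and ependyma, 11 of 13 changes were above 0 (median 0.57), with sums of 229108 to 283131 in knockout and 204351 to 290674 in wild type. Replicate 1 was the lowest array of each group for the mean log2 level of this list. Without wild type replicate 1 the median was 0.17, with 9 of 13 above 0, and without knockout replicate 1 it was 0.88. Among markers of meninges and fibroblasts, 13 of 13 were above 0 (median 0.47), with sums of 52312 to 74583 in knockout and 44176 to 54421 in wild type. Without knockout replicate 2 that median was 0.31, with 10 of 13 above 0. At a limma unadjusted p under 0.05, 6 of these 13 were higher in knockout and 0 lower. Of the 13 choroid plexus and ependyma markers 3 were higher and 0 lower. Among all tested genes 2.44% were higher and 2.31% lower. Groups did not overlap for 3 meningeal and 0 choroid plexus markers, beside 10.5% of all tested genes. The lowest limma adjusted p of each list was 0.988. The part of these differences in the Ntrk2 value was not tested.

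Ntrk3, the TrkC gene on chromosome 7 from 78179986 to 78581034, showed no difference beyond the spread between arrays at its brightest probe set. Probe set 1433825_at had 7353, 8681 and 8529 on the knockout arrays, against 7258, 8146 and 8408 on the wild-type arrays. Replicate 1 was the lowest of each group. Knockout replicates 2 and 3 lay above all 3 wild-type arrays, and the groups overlapped through knockout replicate 1. The log2 change was 0.04 (SE 0.10, 95% interval -0.17 to 0.26, limma adjusted p = 0.997).

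The other tested Ntrk3 probe sets, with 1 exception, had changes near 0. Probe set 1425071_s_at averaged 2504 ± 259 in knockout and 2496 ± 245 in wild type (SD, n = 3 each), a log2 change of 0.004. Probe set 1422329_a_at averaged 2441 ± 251 in knockout and 2519 ± 440 in wild type (SD, n = 3 each), a log2 change of -0.04. Both lay well within the spread between arrays. Probe set 1455917_at had 1340, 2178 and 1974 on the knockout arrays, against 1540, 2119.5 and 1746 on the wild-type arrays, a log2 change of 0.01. Probe set 1425070_at, designed on the same sequence as 1425071_s_at, had 569, 1299 and 842 on the knockout arrays, against 910, 778 and 998 on the wild-type arrays, a log2 change of -0.06 with a 95% interval of -0.72 to 0.60. Its knockout values lay on both sides of the wild-type values.

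The exception was 1447723_at, for which the groups did not overlap. It had 853, 1158 and 799 on the knockout arrays, against 752, 630 and 614.5 on the wild-type arrays. The lowest knockout array lay just above the highest wild-type array. The log2 change was 0.47 (SE 0.25, 95% interval -0.09 to 1.03) and did not pass (limma unadjusted p = 0.0903, adjusted p = 0.988). Without replicate 1 of both groups it was 0.62 (limma adjusted p = 0.515), and without knockout replicate 2, the highest array, it was 0.31. The range of change over the tested Ntrk3 probe sets, 0.53, was matched or passed by 33.9% of genes with 5 or more. Averaged over them, Ntrk3 had a log2 change of 0.07 (95% interval -0.23 to 0.38, limma adjusted p = 0.967).

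Both Ntrk3 probe sets below the filter were erratic within groups. Probe set 1443970_at had 329, 269 and 390.0 in knockout and 420, 296 and 32.5 in wild type, where the low value of wild type replicate 3 alone set the sign of the change. Probe set 1426003_at had 38.6, 264.6 and 113.5 in knockout and 113.5, 38.7 and 156.3 in wild type, with each group spanning much of the range of the other.

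Ngfr, the p75 gene on chromosome 11 from 95568818 to 95587698, was near the lower limit of what was tested. In the adult brain p75 is known mainly from cholinergic neurons of the basal forebrain, whose fibres reach the hippocampus while their cell bodies lie outside it. Probe set 1454903_at had 442, 366 and 289 on the knockout arrays, against 494, 305 and 227 on the wild-type arrays. The wild-type arrays were both the highest and the lowest of the 6, and the mean log2 value over all arrays, 8.485, was just above the filter. The log2 change was 0.14 with a wide 95% interval of -0.77 to 1.05 (SE 0.41, limma adjusted p = 0.998), so these arrays do not narrow the change of Ngfr to less than about that range.

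The other Ngfr probe sets, designed on a common sequence, were dim and not tested. Probe set 1450177_at had 58.3, 17.7 and 54.7 in knockout and 16.1, 83.8 and 270.7 in wild type. Probe set 1421241_at had 32.7, 125.6 and 81.4 in knockout and 32.1, 23.8 and 23.4 in wild type. They pointed in opposite directions, and although the groups did not overlap for 1421241_at, its values ranked between the 3.96 and 19.5 percentile of all probe sets on the 6 arrays. Fit without the filter, its log2 change of 1.05 had a 95% interval of -0.46 to 2.57 (limma adjusted p = 0.986). Of 8 cholinergic marker genes on the array, 2 were bright enough to be tested.

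Sort1, the sortilin gene on chromosome 3 from 108283974 to 108361519, had a change below 0 at each of its probe sets, all designed on the same sequence, and none passed. Probe set 1423362_at had 30868, 28602 and 32077 on the knockout arrays, against 32910, 29610 and 35391 on the wild-type arrays. The groups overlapped, with a log2 change of -0.09 (SE 0.08, 95% interval -0.27 to 0.08, limma adjusted p = 0.988). Probe set 1450955_s_at had 5449.5, 6845 and 6827.5 on the knockout arrays, against 6885, 7451 and 6638 on the wild-type arrays, a log2 change of -0.14 (95% interval -0.38 to 0.10). Probe set 1423363_at had 5577, 5573 and 5047 on the knockout arrays, against 5750, 5853 and 5395 on the wild-type arrays, a log2 change of -0.07 (95% interval -0.28 to 0.14). Knockout replicate 1 was the lowest of the 6 for 1450955_s_at and knockout replicate 3 for 1423363_at. The change was -0.03 for 1423362_at without wild type replicate 3 and -0.16 without wild type replicate 2, -0.03 for 1450955_s_at without knockout replicate 1, and -0.02 for 1423363_at without knockout replicate 3. Averaged over the 3, the log2 change was -0.10 (95% interval -0.25 to 0.05, limma adjusted p = 0.921).

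**Figure D3:**
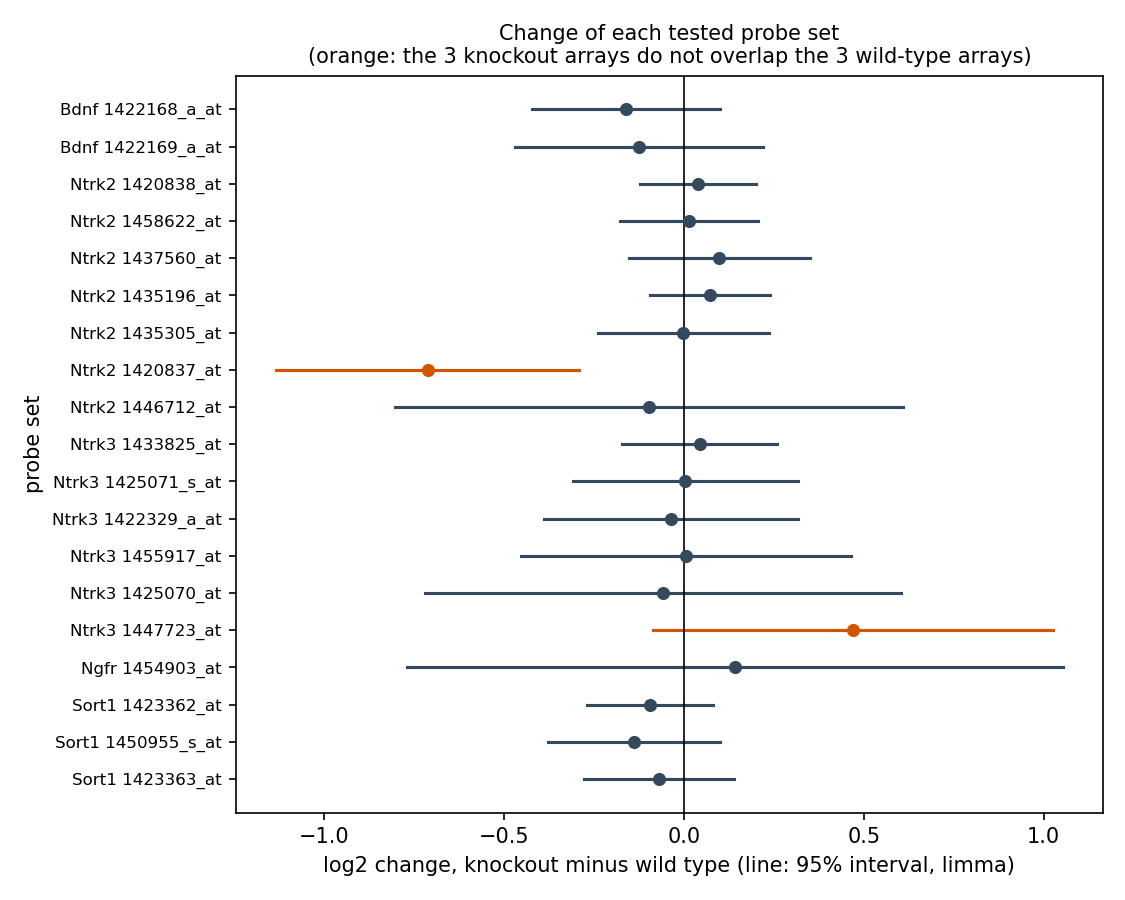
Log2 change, knockout minus wild type, of the 19 tested probe sets with 95% intervals from limma that are not adjusted for the number of probe sets. Orange marks the 2 whose groups did not overlap, Ntrk2 1420837_at at -0.71 and Ntrk3 1447723_at at 0.47; every other interval includes 0, and that of Ntrk3 1447723_at does too.

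For each gene the brightest probe set was set beside those of all other genes to find the most similar course over the arrays. Likeness was the root mean square difference, in log2 units over 6 arrays, after each probe set was centred on its own mean. Bdnf 1422168_a_at came closest to Adgrb1 (0.0347) and Wdr90 (0.0468), out of 165 genes within 0.1. Ngfr 1454903_at, whose values ranged over 1.07, had 3 genes within 0.1, and Ppp1r3g (0.0878) and Rrp8 (0.0948) were the closest. The flat courses of the other genes had many neighbours. Ntrk2 1420838_at came closest to Dpysl4 (0.0132) and Dnm3 (0.0182) among 2375 within 0.1, Ntrk3 1433825_at to Pcp4l1 (0.0189) and Mlycd (0.0245) among 848, and Sort1 1423362_at to Fndc4 (0.0100) and Fzr1 (0.0192) among 1192.

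The rest of the pathway was followed through 8 lists of genes, each gene being represented by its brightest probe set; 1 of the lists held only Ntf5, which was not tested. They held 120 genes on the array, of which 116 were tested. By limma 0 of these were called in either direction, where 0.016% of all 12493 tested genes were called, and the lowest adjusted p was 0.988. At an unadjusted p under 0.05, 4 were higher and 2 lower in knockout, beside 2.44% higher and 2.31% lower among all tested genes. Of the 116 changes 57 were above 0, beside 50.1% of all tested genes. The median log2 change was -0.02, against 0.000 over all genes, and single changes ran from -0.455 to 0.62.

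Other ligands and sorting receptors gave no call. Ntf5, which encodes neurotrophin-4 (Ntf4 in some annotations), was dim and not tested, at 174.3, 58.1 and 191.7 in knockout and 346.9, 342.2 and 103.2 in wild type. The groups overlapped, and the fit without the filter gave a log2 change of -0.80 with a 95% interval of -2.35 to 0.75. The sortilin relatives Sorl1, Sorcs1, Sorcs2 and Sorcs3 had changes of 0.05, 0.08, 0.07 and -0.14. Of 10 genes of precursor processing and release, 0 had an unadjusted p under 0.05. Furin, a convertase that cuts proneurotrophins, had a log2 change of -0.20 (SE 0.19), Plat, which encodes tissue plasminogen activator, 0.17 (SE 0.17), and Cadps2, which acts in BDNF release, -0.02 (SE 0.08).

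Among 27 adaptors and members of the Ras and MAP kinase branch, 9 changes were above 0 and 18 below (median -0.06). Sos1, a Ras exchange factor recruited by Grb2, had 6315, 8456 and 6505 on the knockout arrays, against 5329, 5794 and 5625 on the wild-type arrays at probe set 1434389_at. The groups did not overlap (log2 change 0.33, SE 0.12, limma unadjusted p = 0.0164, adjusted p = 0.988), while its 2 other tested probe sets changed by -0.17 and 0.16. Without knockout replicate 2, the highest array, the change of 1434389_at was 0.199. Of 16 genes of the PI3 kinase, Akt and phospholipase C branches, 12 changes were above 0 and 4 below (median 0.05).

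Akt1, the kinase downstream of PI3 kinase, had the lowest p of the lists. Probe set 1416657_at had 6098, 5774 and 7108 on the knockout arrays, against 8506, 8178 and 8015 on the wild-type arrays. Knockout lay below wild type without overlap, and the log2 change of -0.38 (SE 0.10) did not pass (limma unadjusted p = 0.00228, adjusted p = 0.988). The 2 other tested Akt1 probe sets changed by -0.08 and 0.08, the first of them at a similar intensity.

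Of 21 co-receptors and effectors of p75, 8 changes were above 0 and 13 below (median -0.03). Zfp369, which encodes a p75-interacting zinc finger protein, had a log2 change of -0.32 (SE 0.13, limma unadjusted p = 0.0305, adjusted p = 0.988). Its groups overlapped, as knockout replicate 2, at 3738, was above wild type replicate 3, at 3624.5. Lingo1 and Rtn4r, which encode partners of p75 in the Nogo receptor complex, had changes of -0.11 and -0.06, and Bex3, which encodes a protein that binds the p75 death domain, -0.12.

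Of 16 transcription factors and chromatin proteins acting on Bdnf, 9 changes were above 0 and 7 below (median 0.03). Bhlhe40, a repressor that binds a Bdnf promoter, had 11841, 10318 and 10228 on the knockout arrays, against 9563.5, 8963 and 8795 on the wild-type arrays (log2 change 0.24, SE 0.09, limma unadjusted p = 0.0174, adjusted p = 0.988). Rest, which silences neuronal genes, was dimmer, at 644, 956 and 837 in knockout and 473, 592 and 495 in wild type (log2 change 0.62, SE 0.28, limma unadjusted p = 0.0481, adjusted p = 0.988). Knockout was above wild type without overlap for both genes, and the 1 other tested probe set of Rest changed by 0.06. Fit without the filter, the limma unadjusted p of Rest 1428227_at was 0.0719. In that fit the dim, untested Rest probe sets 1425564_at and 1425566_at changed by -0.21 and -0.29. Creb1, which encodes CREB, had a log2 change of 0.12 (SE 0.10), and Npas4, an activity-induced factor, -0.06 (SE 0.39).

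Of 22 transcripts that BDNF and TrkB induce in neurons, 13 changes were above 0 and 9 below (median 0.03). Egr3, an immediate early transcription factor, had a log2 change of 0.33 at probe set 1436329_at (SE 0.14, limma unadjusted p = 0.0328, adjusted p = 0.988), with 9886, 9099 and 8640 on the knockout arrays, against 8534, 7985 and 5713 on the wild-type arrays. Without wild type replicate 3, the lowest array, the change was 0.155. The other tested probe set of Egr3 changed by -0.09. Groups did not overlap for 4 of the 22, beside 10.5% of all tested genes, and all 4 were higher in knockout. They were Egr3, Homer1 (log2 change 0.11), Spry4 (0.35) and Pim1 (0.25), each at a limma adjusted p of 0.988. Arc, Fos and Vgf, which BDNF also induces, had log2 changes of -0.12 (SE 0.34), -0.29 (SE 0.41) and -0.26 (SE 0.17), and their groups overlapped.

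**Figure D4:**
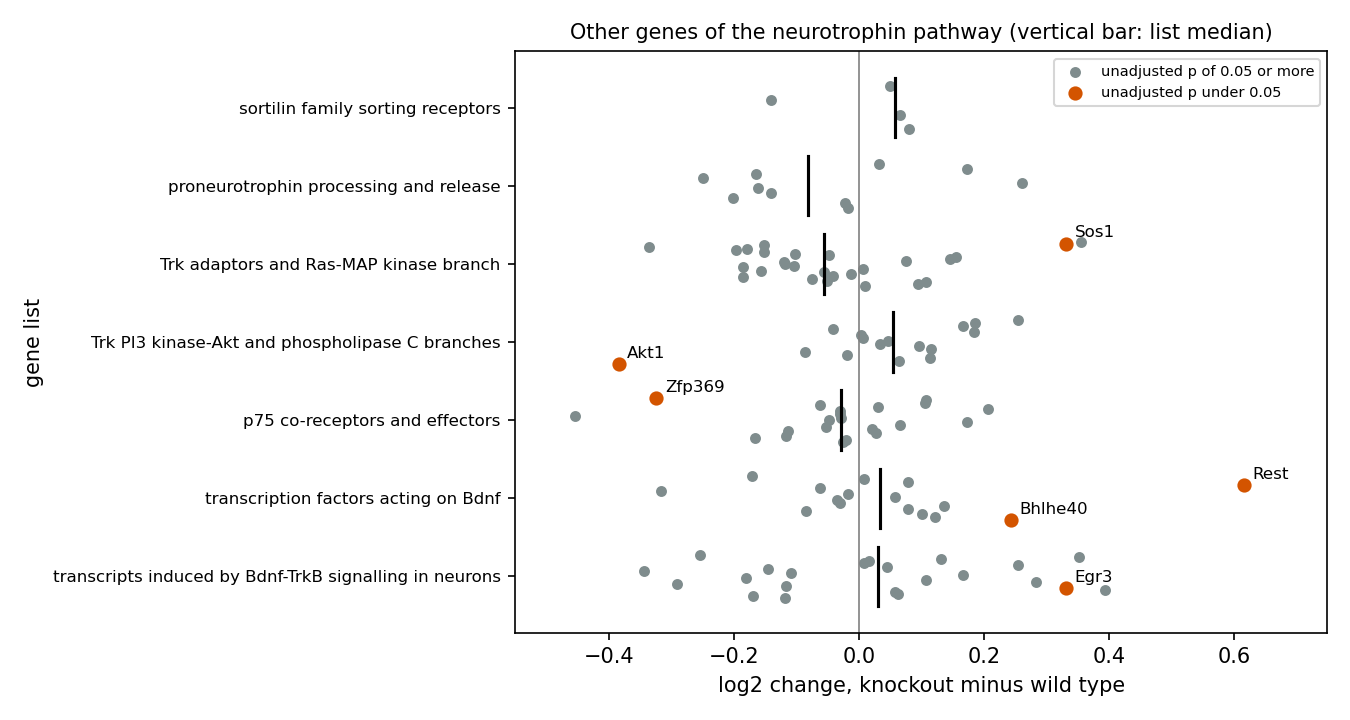
Log2 change, knockout minus wild type, of each of the 116 tested genes of the other pathway lists, 1 point a gene, with a vertical bar at the median of each list. Orange points are the 6 genes with a limma unadjusted p under 0.05, Akt1 and Zfp369 below 0 and Sos1, Bhlhe40, Rest and Egr3 above; 0 passed after adjustment, and list medians lie between -0.08 and 0.06.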

How the data were processed

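The file deposited by the authors holds one linear intensity per probe set and array, already scaled to a common level: leaving out the highest and lowest 2% of values, the mean is 2500 on all 6 arrays. No label or header names the software. Probe sets were named from the platform annotation (34958 of 45101 with 1 symbol, 932 with several, 9211 with none), and gene positions came from a RefSeq table of GRCm38.p6 matched by symbol. Values were taken as log2(intensity + 16), so fold changes of dim probe sets are understated. The 64 control probe sets and the dimmest 40% were left out, leaving 26999. The knockout and wild-type arrays were compared in R 4.3.3 by limma 3.58.1 (group as the only term, intensity trend, two-sided). Differences between probe sets of Bdnf and Ntrk2 were compared by exact permutation of the arrays. The fit was tested on simulated data. The members and gene lists were chosen with earlier results of these data known. Genes named outside the 6 members were Ppp1r1a, Ntf5 and the 2 nearest courses of each gene. Pathway genes at an unadjusted p under 0.05 were also named, at most 5 in each direction. Sorl1, Sorcs1, Sorcs2, Sorcs3, Furin, Plat, Cadps2, Lingo1, Rtn4r, Bex3, Creb1, Npas4, Arc, Fos and Vgf were added for their known roles after values were seen. Camk2a, Homer1, Spry4, Pim1, Gfap and Slc1a3 were added for their values. Alternatives were pseudocounts of 1 and 64, no filter or one at 20%, median or quantile scaling, no intensity trend, weighted arrays, a replicate block, single arrays or replicate 1 of both groups left out, and pathway genes averaged over probe sets. Single arrays were also left out for the marker lists and the untested probe sets, which was chosen after seeing the data. The number of arrays limits the precision.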

Additional observations from a re-analysis of the deposited data

How the results depend on the processing

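Of the member probe sets 0 were called by limma in the analysis as reported and in each of 16 alternatives, and 0 pathway genes in each of 17. In the analysis as reported, 1 member and 6 pathway genes had a limma unadjusted p under 0.05. The lowest adjusted p of a member was 0.266, for Ntrk2 1420837_at without knockout replicate 1, where its change was -0.70; over the alternatives it ran from -0.83 to -0.61. Ntrk3 1447723_at ran from 0.31 to 0.62, and Ngfr 1454903_at from -0.10 (without wild type replicate 3) to 0.43. The sign of Ntrk3 1425071_s_at was kept in 8 of 16 alternatives, its change being near 0. The difference between the Bdnf probe sets ran from -0.20 (without knockout replicate 2) to 0.16 (without knockout replicate 3). The Ntrk2 pairs whose groups did not overlap numbered 5 to 9 when single arrays were left out (9 without knockout replicate 1) and 10 when replicate 1 was left out of both groups; fewer arrays separate more easily. Over all probe sets, where 3 were lower and 0 higher, 1 was lower without an intensity trend. When replicate 1 was left out of both groups, 7 were higher and 7 were lower. When single arrays were left out, 0 to 2 were higher, the 2 being without knockout replicate 1. With the replicate number as a block 7 were higher and 4 lower, and Ntrk2 1420837_at had an adjusted p of 0.689; no label pairs the samples, and same-numbered arrays deviated together at correlations of 0.241, 0.0542 and 0.0998, with knockout replicate 2 closest to wild type replicate 3 (0.11). The cause of these changes was not tested. The median SE was 0.119 over the tested members and 0.177 over all tested probe sets.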
